A study of Mus musculus with 12 samples.

Results

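The insulin-like growth factor (IGF) system was followed through 10 of its genes in sorted mouse mammary epithelial cells. They were the ligands Igf1 and Igf2, the receptors Igf1r and Igf2r, and the binding proteins Igfbp2, Igfbp3, Igfbp4, Igfbp5, Igfbp6 and Igfbp7. Each gene was taken from the entry of the count table that names 1 locus and holds its symbol. The table has 20114 such entries among 36635 in all, and 14039 of the 20114 had enough counts to be tested. All 10 genes passed this filter on low counts, and 2 of them shared their entry with another gene. Igf2 was counted with its antisense partner Igf2as, and Igfbp7 with Polr2b, which encodes a subunit of RNA polymerase II.

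IGF1 and IGF2 are small secreted hormones that resemble insulin and act through the receptor tyrosine kinase IGF1R, which recruits the docking proteins IRS1 and IRS2 and switches on phosphoinositide 3-kinase and Akt. IGF2R binds IGF2 and takes it into the cell for degradation, and secreted binding proteins hold the ligands until proteases release them. In the mammary gland, IGF1 comes largely from the stroma and supports ductal growth and epithelial survival, while IGFBP5 is known for its rise in the involuting gland.

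The libraries came from adult females, 9 weeks old, whose mixed strain combined 129X1/SvJ, C57BL/6 and Swiss Webster. The promoter of the mouse mammary tumour virus (MMTV) drives Cre, which turns on SmoM2, an activated form of the Hedgehog signal transducer Smoothened, and switches the cell from red to green fluorescence. Recombined libraries were EGFP-positive cells of the genotype mT-mG/SmoM2;MMTV-Cre, and unrecombined libraries were tdTomato-positive cells of that genotype, which carry the same alleles but had not recombined. Wild type libraries were cells of the genotype mT-mG/SmoM2;+, which carry the reporter and the SmoM2 allele without Cre. Each of the 3 groups had 4 libraries. The labels do not say which animals gave which library, so a p-value here measures the spread between libraries. These are bulk samples, in which fewer cells of a type and less RNA per cell cannot be told apart.

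Total counts lay between 19581993 and 34779433 per library. Smo, counted with AK053708, averaged 58.1 counts-per-million (CPM) in recombined, 30.4 CPM in unrecombined and 28.3 CPM in wild type libraries, and the Hedgehog target Ptch1 averaged 434, 44.8 and 36.3 CPM in the same order of groups. Recombined libraries 3 and 4 stood apart from the other 10 on the first principal component and had the fewest loci detected, 14256 and 14601. Salivary gland transcripts were highest in the 3 libraries numbered 2, with summed levels of 9592 CPM in the recombined, 49606 CPM in the unrecombined and 19047 CPM in the wild type library. All 12 basal and all 12 luminal markers examined were counted in every library. All 12 fibroblast markers were also counted in every library, so the presence of counts does not show how pure the sorted cells were.

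In recombined libraries the ligand Igf1 and the binding protein Igfbp4 were lower than in both other groups, and the receptor Igf1r and the binding protein Igfbp3 were higher. The levels are shown in the plot of CPM by library and the changes in the plot of log2 fold changes. In recombined against wild type libraries, 6 of the 10 genes passed an adjusted p of 0.05 in the quasi-likelihood F test of edgeR, where 6.55% of all loci tested did. Igf1r, Igfbp3 and Igfbp5 rose (4.17% of all loci did so), and Igf1, Igf2r and Igfbp4 fell (2.38% of all loci). In 5 of the 10 genes the 4 recombined and the 4 wild type libraries did not overlap, which held for 12.2% of all loci. Igf1r and Igfbp5 were higher without overlap (6.33% of all loci), and Igf1, Igf2r and Igfbp4 lower (5.91% of all loci). In recombined against unrecombined libraries, 4 of the 10 passed, beside 5.22% of all loci: Igf1r and Igfbp3 rose (3.08% of all loci), and Igf1 and Igfbp4 fell (2.14% of all loci). This fit does not pair libraries. With those of the same replicate number taken as pairs, 6 of the 10 passed, Igfbp5 higher and Igfbp6 lower as well, beside 984 loci in all. In 6 of the 10 those groups did not overlap, against 11.3% of all loci. Igf1r and Igfbp3 were higher without overlap (5.57% of all loci), and Igf1, Igf2r, Igfbp4 and Igfbp6 lower (5.71% of all loci).

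In unrecombined against wild type libraries no gene of the 10 and no locus of all (0%) passed in edgeR. There 3.85% of all loci, Igf1 and Igfbp4 among them, had an unadjusted p under 0.05, a share below the 0.05 expected if no locus differed. DESeq2 called 78 loci and 1 of the 10 genes there, and limma-voom 18 loci and 1 of the 10. Igf1, Igfbp4 and Igfbp7 were higher in all 4 unrecombined libraries than in every wild type library, a lack of overlap seen in 2.86% of all loci. None of the 10 was lower without overlap (1.55% of all loci), and either direction together made up 4.42%. The median log2 fold change of the 10 genes was -0.08 in recombined against wild type libraries, 0.17 in unrecombined against wild type and 0.04 in recombined against unrecombined, beside -0.02, -0.00 and -0.01 over all loci. Any 2 of these comparisons share 4 libraries, so their fold changes are not independent of each other.

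**Figure D1:**
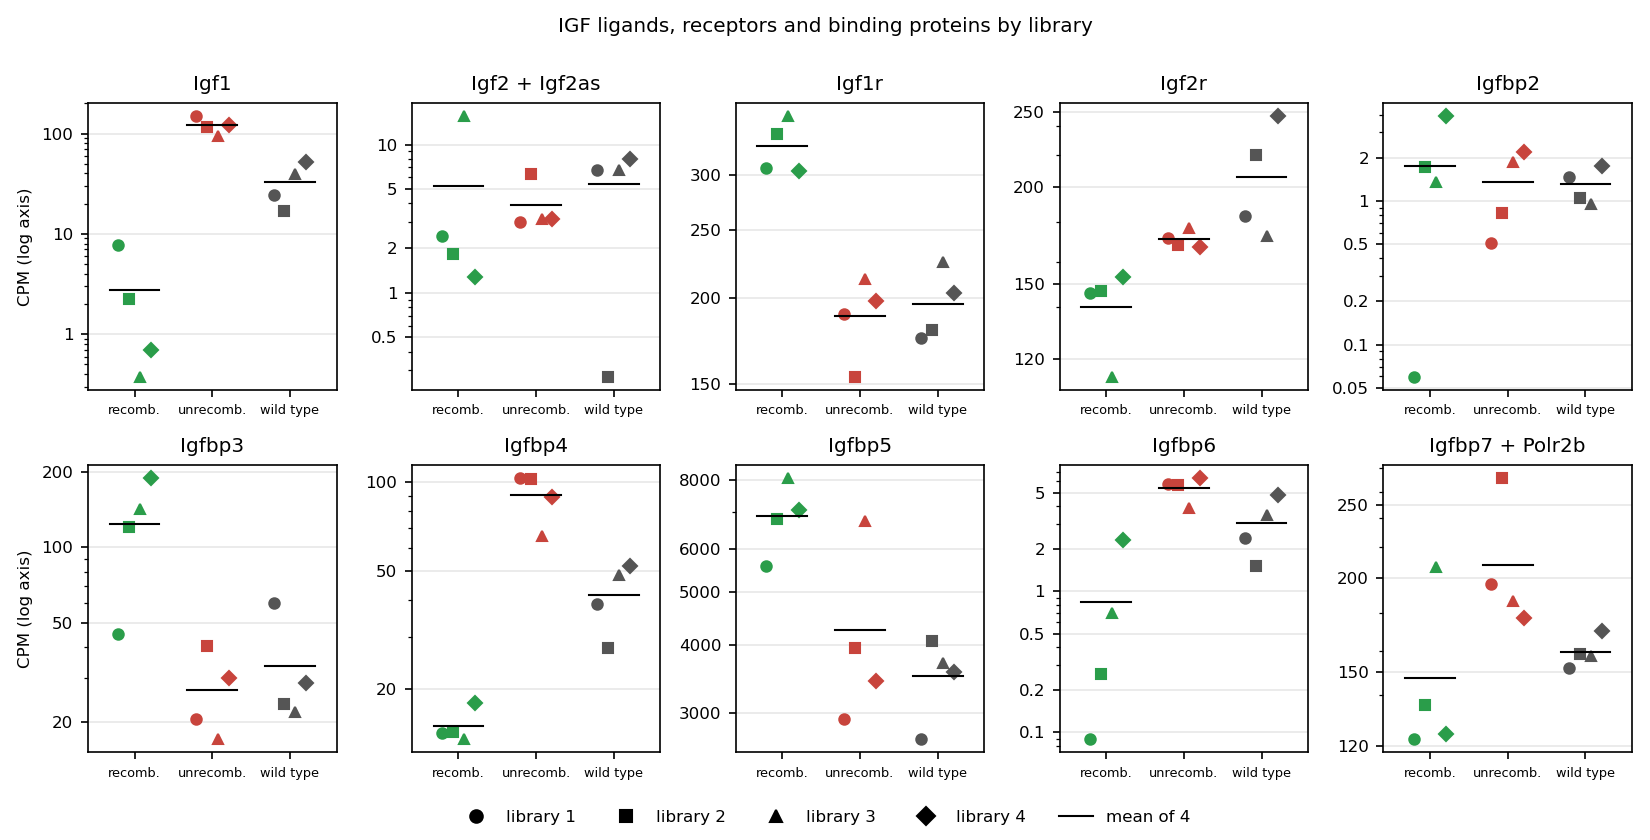
CPM on log axes for the 10 genes in each of the 12 libraries, with the recombined libraries on the left, the unrecombined in the middle and the wild type on the right of each panel. Marker shapes give the library number and the line is the mean of 4; recombined libraries lay lowest for Igf1 (at most 7.73 CPM) and Igfbp4 (at most 17.9 CPM) and highest for Igf1r (at least 304 CPM).

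**Figure D2:**
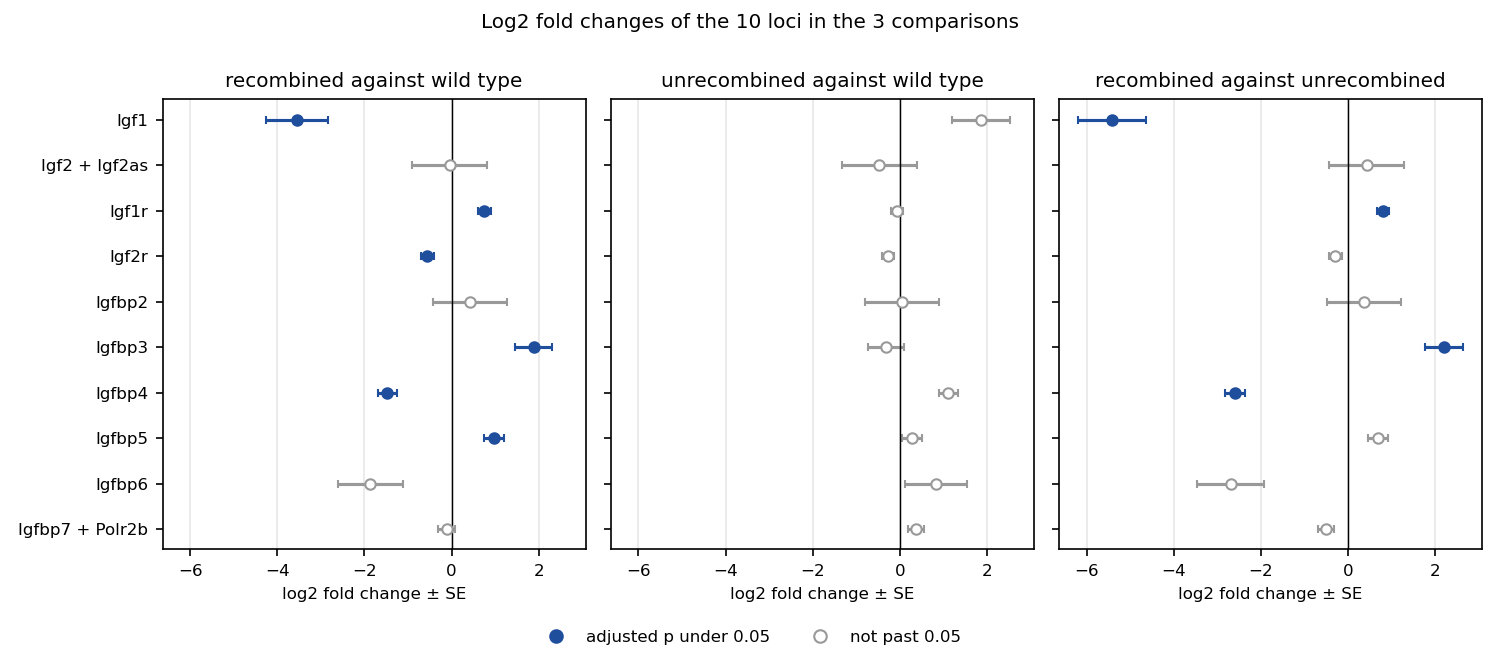
Log2 fold changes with their standard errors for the 10 genes in the 3 comparisons, from the edgeR fit that does not pair libraries. Filled points passed an adjusted p of 0.05: 6 genes in recombined against wild type libraries, 0 in unrecombined against wild type and 4 in recombined against unrecombined.

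The promoters of 5 genes are shown because the results turn on them: Igf1, Igf1r, Igfbp3 and Igfbp4 passed in both comparisons of recombined libraries, and Igfbp5 had the most counts of the 10. Each line holds the 250 bases before the transcript start in RefSeq, 5′ to 3′ on the strand of the gene, in the build GRCm38.p6. The windows are chr10:87860861-87861110 on the plus strand for Igf1, chr7:67952007-67952256 on the plus strand for Igf1r, chr11:7213924-7214173 on the minus strand for Igfbp3, chr11:99040994-99041243 on the plus strand for Igfbp4 and chr1:72874866-72875115 on the minus strand for Igfbp5. The GENCODE annotation of GRCm38 starts Igf1 further upstream, at position 87858265. The Igf1 window therefore lies inside the gene as annotated there and does not cover its first start. Capitals mark the motifs that are spelled out after the sequences.
Igf1: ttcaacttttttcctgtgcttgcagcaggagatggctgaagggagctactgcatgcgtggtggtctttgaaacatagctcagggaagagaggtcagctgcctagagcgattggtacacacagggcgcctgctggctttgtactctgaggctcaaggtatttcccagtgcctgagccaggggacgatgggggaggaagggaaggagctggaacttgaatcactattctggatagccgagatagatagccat
Igf1r: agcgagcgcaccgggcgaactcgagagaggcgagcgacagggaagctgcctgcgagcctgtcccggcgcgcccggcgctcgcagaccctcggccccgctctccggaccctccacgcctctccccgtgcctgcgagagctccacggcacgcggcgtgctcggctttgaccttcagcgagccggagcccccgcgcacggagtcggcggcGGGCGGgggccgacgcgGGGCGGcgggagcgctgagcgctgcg
Igfbp3: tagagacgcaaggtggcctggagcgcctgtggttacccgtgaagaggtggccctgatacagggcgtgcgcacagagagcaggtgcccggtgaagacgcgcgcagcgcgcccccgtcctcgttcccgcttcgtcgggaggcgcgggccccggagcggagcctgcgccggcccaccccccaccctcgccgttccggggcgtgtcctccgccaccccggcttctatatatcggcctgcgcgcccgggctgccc
Igfbp4: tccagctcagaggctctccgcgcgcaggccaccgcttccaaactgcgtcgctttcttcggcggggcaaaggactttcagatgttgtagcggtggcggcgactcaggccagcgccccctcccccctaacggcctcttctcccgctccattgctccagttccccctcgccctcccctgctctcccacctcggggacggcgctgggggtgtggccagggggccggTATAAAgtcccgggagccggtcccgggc
Igfbp5: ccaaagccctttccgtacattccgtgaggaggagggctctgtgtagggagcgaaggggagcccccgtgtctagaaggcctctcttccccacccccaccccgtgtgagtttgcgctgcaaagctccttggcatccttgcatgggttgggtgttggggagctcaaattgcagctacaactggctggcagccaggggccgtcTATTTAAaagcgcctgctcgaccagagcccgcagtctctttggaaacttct

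The cores of a GC box and a TATA box, a variant of the TATA box and a Gli site were searched on both strands. The search covered these windows and 32851 windows of all RefSeq genes. The 10 genes together have 14 windows, because Igfbp2 and Igf2 have more than 1 start in the RefSeq windows used. The Igf1r window, with 77.6% G and C, held 2 GC box cores (GGGCGG), a motif found in 32.7% of all windows and in 6 of the 14. The TATA box of Igfbp4 began at position -28 and the variant of Igfbp5 at position -51, counted back from the start. TATAAA was present in 12.4% of all windows and in 2 of the 14, and TATTTAA in 4.18% of all windows and in 1 of the 14. The Gli consensus GACCACCCA, the motif bound by the transcription factors of Hedgehog signalling, was in 0.225% of all windows and in 0 of the 14. The windows of Igf1 and Igfbp3 held none of these exact strings. Other spellings of a TATA box were not searched, such as the tatatat near the end of the Igfbp3 window. A match is a string of letters and not a shown binding site, and a missing match covers only this window.

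Igf1, on mm9 chromosome 10 from position 87321800, had the widest relative range of the 10 genes over the 12 libraries. The recombined libraries 1 to 4 had 7.73, 2.24, 0.377 and 0.701 CPM, from 259, 61, 7 and 17 counts. The unrecombined libraries had 150, 117, 93.8 and 121 CPM, and the wild type libraries 24.4, 17.0, 39.8 and 51.6 CPM. All 4 recombined libraries lay below every wild type library, and all 4 unrecombined libraries lay above every wild type library, with no overlap between any pair of groups. Igf1 fell by 3.55 on the log2 scale in recombined against wild type libraries (standard error (SE) 0.722, edgeR adjusted p = 0.0120). It fell by 5.41 against unrecombined libraries (SE 0.782, edgeR adjusted p = 0.00132). Both calls held in every alternative run, with log2 fold changes from -4.86 to -2.74 and from -6.72 to -4.59.

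The higher Igf1 of unrecombined than wild type libraries did not pass, at a log2 fold change of 1.86 ± 0.66 (SE, edgeR adjusted p = 1.00). With limma-voom it was 1.97 and passed at an adjusted p of 0.0328. Within the recombined group, libraries 3 and 4 had the lowest levels. The library numbers of the labels begin with 231 or 246, and those of recombined and unrecombined libraries 3 and 4 and of wild type library 4 begin with 246. The log2 difference of recombined to wild type libraries was -2.59 within the series 231 (2 against 3 libraries) and -6.45 within the series 246 (2 against 1).

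Igf2, counted with Igf2as from position 149836672 of mm9 chromosome 7, was low in all groups. Recombined libraries had 2.42, 1.83, 15.6 and 1.28 CPM, unrecombined libraries 3.01, 6.37, 3.13 and 3.16 CPM, and wild type libraries 6.78, 0.271, 6.72 and 7.96 CPM. The groups overlapped, and each group had 1 library far from its other 3. The log2 fold change was -0.05 ± 0.86 (SE, edgeR adjusted p = 0.986) in recombined against wild type libraries and 0.43 ± 0.86 (SE, edgeR adjusted p = 0.856) in recombined against unrecombined. The counts do not separate Igf2 from its antisense transcript.

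Igf1r, the signalling receptor, from position 75097142 of mm9 chromosome 7, rose in recombined libraries. Its levels were 307, 344, 365 and 304 CPM in recombined libraries, 189, 154, 212 and 198 CPM in unrecombined libraries and 175, 180, 225 and 203 CPM in wild type libraries. Every recombined library lay above all 8 others, and the other groups overlapped. Igf1r rose with a log2 fold change of 0.75 ± 0.14 against wild type libraries (SE, edgeR adjusted p = 0.00596) and 0.81 ± 0.14 against unrecombined libraries (SE, edgeR adjusted p = 0.00342). The rise was 0.76 in the library number series 231 and 0.71 in the series 246 against wild type libraries. Against wild type, 1 alternative ended the call: without recombined libraries 3 and 4 together the log2 fold change was 0.73 at an edgeR adjusted p of 0.0592. Between unrecombined and wild type libraries the log2 fold change was -0.06 ± 0.14 (SE, edgeR adjusted p = 1.00).

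Igf2r, the clearance receptor, from position 12875271 of mm9 chromosome 17, moved the other way and by less. Recombined libraries had 146, 147, 114 and 153 CPM, unrecombined libraries 172, 168, 177 and 167 CPM, and wild type libraries 183, 220, 173 and 247 CPM. The recombined libraries lay below all 8 others. Igf2r fell by 0.56 on the log2 scale against wild type libraries (SE 0.145, edgeR adjusted p = 0.0336), while against unrecombined libraries its log2 fold change of -0.29 ± 0.14 did not pass (SE, edgeR adjusted p = 0.308). The call against wild type was lost in 12 of 24 alternatives. Those included leaving out recombined library 2 or 3, unrecombined library 1, 2 or 4, wild type library 2 or 4, recombined libraries 3 and 4 together, or the 3 libraries numbered 2, and the adjusted p over all alternatives lay between 0.00875 and 0.191.

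The binding proteins split. Igfbp3 and Igfbp5 rose in recombined libraries, Igfbp4 fell, Igfbp6 was lower without passing in the main test, and Igfbp2 and Igfbp7 did not pass. Igfbp5 had the most counts of the 10 in every library.

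Igfbp3 encodes the main carrier of IGFs in blood and lies from position 7106095 of mm9 chromosome 11. Recombined libraries had 45.0, 120, 142 and 189 CPM, unrecombined libraries 20.6, 40.4, 17.2 and 29.9 CPM, and wild type libraries 60.0, 23.7, 22.0 and 28.8 CPM. Recombined library 1 was the lowest of its group and lay below wild type library 1, so those 2 groups overlapped, while every recombined library was above every unrecombined one. Igfbp3 rose with a log2 fold change of 1.88 ± 0.43 against wild type libraries (SE, edgeR adjusted p = 0.0190) and 2.20 ± 0.44 against unrecombined libraries (SE, edgeR adjusted p = 0.00845). The call against wild type was lost without recombined library 3 or 4, wild type library 2, 3 or 4, or the 3 libraries numbered 2. Without recombined libraries 3 and 4 together both calls were lost, at 1.29 (edgeR adjusted p = 0.273) and 1.63 (edgeR adjusted p = 0.169).

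Igfbp4, whose protein holds IGFs until the protease PAPPA cuts it, lies from position 98902573 of mm9 chromosome 11 and had the smallest adjusted p of the 10 genes in all 3 comparisons. Recombined libraries had 14.2, 14.4, 13.6 and 17.9 CPM, unrecombined libraries 104, 103, 65.7 and 89.6 CPM, and wild type libraries 38.7, 27.5, 48.8 and 52.1 CPM. As with Igf1, the 3 groups did not overlap at all, with recombined libraries lowest and unrecombined libraries highest. Igfbp4 fell by 1.48 on the log2 scale against wild type libraries (SE 0.221, edgeR adjusted p = 0.00141) and by 2.59 against unrecombined libraries (SE 0.229, edgeR adjusted p = 1.51e-05). Both calls held in every alternative run. In unrecombined against wild type libraries the log2 fold change of 1.11 ± 0.22 did not pass in edgeR (SE, adjusted p = 0.202) but passed in DESeq2 at 1.12 (adjusted p = 0.00173).

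Igfbp5, from position 72904638 of mm9 chromosome 1, was among the most abundant transcripts of these cells. Recombined libraries had 5583, 6810, 8084 and 7073 CPM, unrecombined libraries 2920, 3938, 6755 and 3435 CPM, and wild type libraries 2689, 4064, 3699 and 3563 CPM. It took between 0.574% and 0.767% of the counts of a recombined library, between 0.301% and 0.714% of an unrecombined one and between 0.293% and 0.393% of a wild type one. Its rank among all loci was 6 to 10, 7 to 17 and 12 to 18 in those groups. The recombined libraries were above every wild type library, and unrecombined library 3 lay among the recombined ones.

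Igfbp5 rose with a log2 fold change of 0.98 ± 0.23 against wild type libraries (SE, edgeR adjusted p = 0.0232). The call was lost without recombined library 3 (0.90), wild type library 1, 3 or 4 (0.87 to 1.00), or the 3 libraries numbered 2 (1.09), and without recombined libraries 3 and 4 together (0.82, edgeR adjusted p = 0.218). Against unrecombined libraries the log2 fold change of 0.69 ± 0.23 did not pass (SE, edgeR adjusted p = 0.115). With the replicate number as a block, which treats those libraries as paired though the labels do not say so, it was 0.76. It passed there at an edgeR adjusted p of 0.0138. Without unrecombined library 3 it was 1.00 at an edgeR adjusted p of 0.00737.

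Igfbp6 prefers IGF2 over IGF1 and lies from position 101974616 of mm9 chromosome 15. Recombined libraries had 0.0896, 0.257, 0.700 and 2.31 CPM, from 3, 7, 13 and 56 counts. Unrecombined libraries had 5.76, 5.69, 3.88 and 6.35 CPM, and wild type libraries 2.38, 1.51, 3.49 and 4.80 CPM. All recombined libraries lay below all unrecombined ones, but recombined library 4 lay above wild type library 2. The log2 fold change against wild type libraries was -1.87 ± 0.75 (SE, edgeR adjusted p = 0.175), and it passed without recombined library 4 at -3.18 (edgeR adjusted p = 0.0195) and without recombined libraries 3 and 4 together at -4.13 (edgeR adjusted p = 0.00963). In recombined against unrecombined libraries it was -2.70 ± 0.77 (SE, edgeR adjusted p = 0.0607), and with the replicate block -3.42, which passed at an edgeR adjusted p of 0.0442. It also passed with DESeq2 (-2.68, adjusted p = 0.00435), with limma-voom (-3.66, adjusted p = 0.0138, and -4.26, adjusted p = 0.0102 with library weights) and with the library number series as covariate (-3.22, edgeR adjusted p = 0.0248). Without recombined library 4 it was -4.01 (edgeR adjusted p = 0.00585), and without recombined libraries 3 and 4 together -4.95 (edgeR adjusted p = 0.00271).

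Igfbp2, from position 72871076 of mm9 chromosome 1, was near the floor of detection. It had 0.0597, 1.72, 1.35 and 3.92 CPM in recombined libraries, 0.507, 0.829, 1.87 and 2.21 CPM in unrecombined libraries and 1.46, 1.05, 0.960 and 1.76 CPM in wild type libraries. Its lowest value, in recombined library 1, came from 2 counts, and the groups overlapped throughout. The log2 fold change was 0.43 ± 0.85 (SE, edgeR adjusted p = 0.835) in recombined against wild type libraries.

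Igfbp7, which encodes a secreted protein of the vessel wall and matrix that binds IGFs weakly, shares its entry with Polr2b from position 77739508 of mm9 chromosome 5. In GRCm38 those genes lie on opposite strands and their ends overlap by 85 bases. The entry had 123, 136, 207 and 124 CPM in recombined libraries, 197, 271, 186 and 177 CPM in unrecombined libraries and 152, 159, 157 and 170 CPM in wild type libraries. Recombined library 3 stood above the other 3 of its group. The log2 fold change of -0.50 ± 0.19 in recombined against unrecombined libraries did not pass (SE, edgeR adjusted p = 0.159). It passed without recombined library 3, at -0.69 (edgeR adjusted p = 0.0251). Reads of Polr2b, which every cell transcribes, may make up an unknown share of these values.

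Levels of different genes were compared per length, as CPM per kilobase of exon, for the 8 genes with an entry of their own, with exon lengths from the GENCODE annotation of GRCm38. Igfbp5 stood first in every group, at 1147 ± 171 CPM per kilobase in recombined, 710 ± 285 in unrecombined and 583 ± 97.0 in wild type libraries (SD, n = 4 each). In recombined libraries Igfbp3 (39.7 ± 19.2) and Igf1r (19.6 ± 1.76) followed, and their ranges overlapped. Igf2r came next there at 15.0 ± 1.90, below Igf1r in every library, and Igf1 had the lowest mean of the 8 at 0.279 ± 0.345. Its range overlapped those of Igfbp6 (0.754 ± 0.911) and Igfbp2 (0.954 ± 0.868) there, and in recombined library 1 it was above both. In unrecombined libraries Igfbp4 (20.5 ± 4.02) and Igf2r (18.4 ± 0.464) followed Igfbp5 with overlapping ranges, and Igf1 came next at 12.2 ± 2.33 beside Igf1r at 11.2 ± 1.48. In wild type libraries Igf2r (22.1 ± 3.67) came after Igfbp5, above Igf1r (11.7 ± 1.38) without overlap, and Igf1 was lower at 3.35 ± 1.57. The order of the receptors per length thus differed: Igf1r was above Igf2r in recombined libraries and below it in unrecombined and wild type libraries. That order depends on the lengths, which span all exons annotated for a gene. In CPM, Igf1r and Igf2r averaged 188 and 171 in unrecombined and 196 and 206 in wild type libraries, with overlapping ranges in both groups.

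Markers of other cell types moved with several of these genes. The summed level of the 12 fibroblast markers lay between 219 and 656 CPM in recombined, 5294 and 7456 CPM in unrecombined and 1497 and 3491 CPM in wild type libraries. Of the 12, 9 fell in recombined against wild type libraries (2.38% of all loci) and 10 in recombined against unrecombined (2.14% of all loci). This order of the groups is that of Igf1, Igfbp4 and Igfbp6. Other marker lists shared it. Median endothelial sums were 73.3 CPM in recombined, 169 CPM in unrecombined and 152 CPM in wild type libraries. Median adipocyte sums were 48.1, 199 and 92.7 CPM in the same order of groups. Within the wild type libraries, the fibroblast sum and the CPM of Igf1, Igfbp4 and Igfbp6 put the 4 libraries in the same order, from library 2 as the lowest through 1 and 3 to 4. Within the unrecombined libraries the order was not the same. Library 1 had the highest sum, Igf1 and Igfbp4, but Igfbp6 was highest in library 4, where the sum was 5381 CPM. Library 3, with a sum of 6939 CPM, was lowest for Igf1, Igfbp4 and Igfbp6. Within the recombined libraries Igfbp6 put the libraries in the order of the sum. Igf1 did not follow the sum there: it was highest in library 1, which had the lowest sum. The part of fibroblast RNA in these results was not tested.

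The 12 basal and myoepithelial markers summed to between 1918 and 7903 CPM in recombined, 564 and 1153 CPM in unrecombined and 832 and 1078 CPM in wild type libraries. Of the 12, 11 rose in recombined libraries against wild type (4.17% of all loci) and 11 against unrecombined (3.08% of all loci). Igfbp3 was lowest in recombined library 1, where the basal sum was also lowest of that group, and both were highest in recombined library 4. Unrecombined library 3 had 6755 CPM of Igfbp5 with the lowest basal sum of all 12 libraries, 564 CPM. Of the 12 luminal hormone-sensing markers, 8 fell in recombined against wild type libraries (2.38% of all loci) and 4 in recombined against unrecombined (2.14% of all loci). Their sum was 1386 to 2848 CPM in recombined, 4350 to 6217 CPM in unrecombined and 4317 to 8107 CPM in wild type libraries. The part of basal and luminal RNA in the results on Igf1r, Igfbp3, Igfbp5 and Igf2r was not tested.

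Markers of other cell types were also counted. Endothelial markers summed to 54.4 to 122 CPM in recombined, 122 to 216 CPM in unrecombined and 103 to 167 CPM in wild type libraries. Of the 12 only Kdr passed, which fell by 2.43 on the log2 scale against unrecombined libraries (edgeR adjusted p = 0.0303), where 2.14% of all loci fell. Macrophage markers summed to 16.1 to 27.1, 18.2 to 38.0 and 38.3 to 118 CPM in recombined, unrecombined and wild type libraries. Of 9 tested, 4 fell against wild type libraries (2.38% of all loci), namely Ptprc (-2.54), Cd74 (-2.44), H2-Aa (-3.19) and H2-Ab1 (-2.29). Against unrecombined libraries 0 passed (5.22% of all loci). Pericyte markers summed to 82.1 to 173, 82.8 to 102 and 58.4 to 103 CPM. Of 7 tested, Cspg4 (3.33) and Kcnj8 (2.81) rose against wild type libraries (4.17% of all loci), and Cspg4 (3.01) also against unrecombined libraries (3.08% of all loci). Adipocyte markers summed to 27.7 to 123, 169 to 277 and 50.3 to 118 CPM, almost all from Fabp4 and Lpl, while Adipoq was at 0 in 8 of 12 libraries. Lpl fell by 2.35 on the log2 scale against wild type and by 3.92 against unrecombined libraries, and Fabp4 passed in neither comparison. Luminal progenitor markers summed to 2338 to 7311, 4482 to 8745 and 3120 to 4707 CPM, and none of the 11 tested passed in any comparison. The part of these cell types in the results on the IGF genes was not tested.

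**Figure D3:**
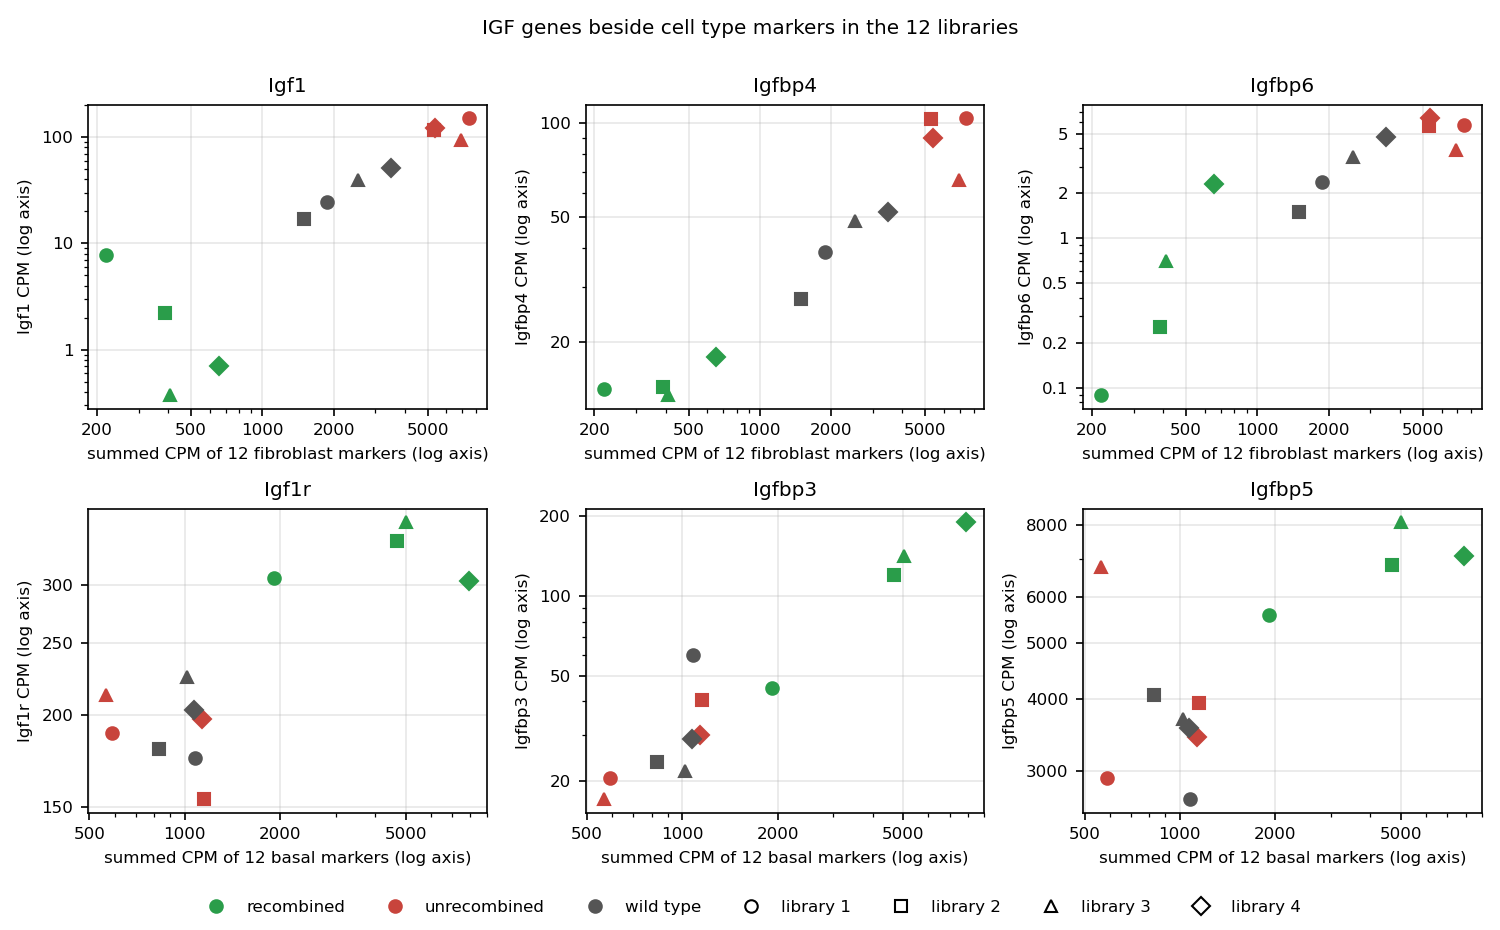
Each point is 1 of the 12 libraries, with the CPM of an IGF gene on the y axis and the summed CPM of 12 fibroblast markers (top row) or 12 basal and myoepithelial markers (bottom row) on the x axis, all on log axes. Recombined libraries (green) lie at 219 to 656 CPM of fibroblast markers and 1918 to 7903 CPM of basal markers, unrecombined libraries (red) at 5294 to 7456 and 564 to 1153 CPM, and wild type libraries (grey) at 1497 to 3491 and 832 to 1078 CPM.

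The genes whose levels over the 12 libraries were most like each called gene are given as a description, since the points share library, depth and group. They were sought only among tested loci with a descriptive symbol of their own and a mean log2 CPM of at least 2. Igf1 was most like the complement genes C1ra (Pearson r 0.989) and Hc (0.974) and Gpnmb (0.969). Igfbp4 was most like the collagen receptor gene Mrc2 (0.981), the collagen gene Col6a2 (0.978) and Pdgfra (0.978), the receptor for platelet-derived growth factor that is also in the fibroblast list. Igfbp3 was most like Tpm2 (0.967) and Cald1 (0.966), genes of the contractile apparatus, and Kank4 (0.959). Igf1r was most like Skil (0.941), Tle1 (0.938) and Ncoa1 (0.936), Igfbp5 was most like Pmepa1 (0.947), Gnb1 (0.936) and Cd44 (0.916), and Igf2r was most like Stc2 (0.955), Klf2 (0.942) and Trp53inp2 (0.931).

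Of the genes that act downstream of the receptor, Irs1 and Irs2, which encode the docking proteins, had higher RNA levels in recombined libraries, as Igf1r did. The calls of Irs2 were less stable: against wild type they were lost in 17 of 24 alternatives. Protein and signalling were not measured. Of 27 listed genes of receptor kin, adaptors and the PI3K-Akt branch, 25 were tested. In recombined against wild type libraries 4 of them rose and 0 fell (4.17% and 2.38% of all loci), and their median log2 fold change was 0.25, beside -0.02 over all loci. In recombined against unrecombined libraries 3 rose and 1 fell (3.08% and 2.14% of all loci), with a median of 0.21 beside -0.01. None passed in unrecombined against wild type libraries, where the median was 0.00. Without recombined libraries 3 and 4, 1 of them rose against wild type, where 128 loci in all rose. Against unrecombined 1 fell and 0 rose, where 182 loci in all fell and 100 rose.

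Irs1, the docking protein that links the receptor to phosphoinositide 3-kinase, had 72.7, 119, 159 and 148 CPM in recombined libraries, 46.2, 56.1, 54.4 and 72.5 CPM in unrecombined libraries and 37.0, 46.7, 32.3 and 49.7 CPM in wild type libraries. Every recombined library was above all others, although recombined library 1 exceeded unrecombined library 4 by little. Irs1 rose with a log2 fold change of 1.59 ± 0.24 against wild type libraries (SE, edgeR adjusted p = 0.00154), a call that held in every alternative run. It also rose by 1.12 ± 0.24 against unrecombined libraries (SE, edgeR adjusted p = 0.0127). That call was lost without unrecombined library 1 (1.03), without the 3 libraries numbered 2 (1.16) and without recombined libraries 3 and 4 together (0.75, edgeR adjusted p = 0.219).

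Irs2, the second docking protein, was counted with AK162519 and had 28.6, 31.1, 37.5 and 36.7 CPM in recombined libraries. It had 23.9, 14.4, 17.5 and 16.6 CPM in unrecombined and 16.2, 22.3, 20.2 and 18.8 CPM in wild type libraries, all below the recombined ones. Irs2 rose by 0.79 ± 0.21 on the log2 scale against wild type libraries (SE, edgeR adjusted p = 0.0374) and by 0.89 ± 0.21 against unrecombined libraries (SE, edgeR adjusted p = 0.0231). The call against wild type was lost in 17 of 24 alternatives, among them each wild type library left out in turn, recombined library 2, 3 or 4 and unrecombined library 3 or 4. Against unrecombined libraries it was lost in 9 of 25, among them recombined library 3 or 4 and unrecombined library 2, 3 or 4. Insr, the insulin receptor, which can pair with IGF1R, averaged 157 ± 30.6 CPM in recombined, 173 ± 19.1 CPM in unrecombined and 174 ± 30.7 CPM in wild type libraries (SD, n = 4 each) and did not pass in any comparison.

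Grb10 and Grb14 encode adaptors that bind the insulin and IGF receptors and dampen their signal, and against unrecombined libraries they changed in opposite directions. Grb10 averaged 30.9 ± 4.17 CPM in recombined, 56.7 ± 5.69 CPM in unrecombined and 37.6 ± 4.05 CPM in wild type libraries (SD, n = 4 each). It fell by 0.87 on the log2 scale in recombined against unrecombined libraries (SE 0.163, edgeR adjusted p = 0.00531), a call that held in every alternative run. Grb14 had 10.6, 13.7, 24.1 and 13.9 CPM in recombined libraries, 9.63, 4.56, 4.96 and 7.23 CPM in unrecombined libraries and 9.67, 8.90, 7.72 and 11.3 CPM in wild type libraries. It rose by 1.24 ± 0.33 on the log2 scale against unrecombined libraries (SE, edgeR adjusted p = 0.0410). That call was lost with the replicate block (1.24, edgeR adjusted p = 0.104) and in 17 of the other 24 alternatives, among them each library left out in turn apart from recombined library 1 and unrecombined library 1.

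Pik3r1, the regulatory subunit of phosphoinositide 3-kinase, averaged 635 ± 139 CPM in recombined, 405 ± 115 CPM in unrecombined and 319 ± 17.3 CPM in wild type libraries (SD, n = 4 each). It rose by 0.99 ± 0.21 on the log2 scale against wild type libraries (SE, edgeR adjusted p = 0.0113). Against unrecombined libraries it did not pass (0.65, edgeR adjusted p = 0.0944) and passed with the replicate block (0.67, edgeR adjusted p = 0.0128). Foxo1, a transcription factor that Akt keeps out of the nucleus, averaged 243 ± 37.1 CPM in recombined, 168 ± 25.0 CPM in unrecombined and 155 ± 20.6 CPM in wild type libraries (SD, n = 4 each). It rose by 0.65 ± 0.16 against wild type libraries (SE, edgeR adjusted p = 0.0253), a call lost without recombined library 3, wild type library 1, 3 or 4, or the 3 libraries numbered 2. Against unrecombined libraries it was 0.53 (edgeR adjusted p = 0.0753), and with the block 0.53, which passed (edgeR adjusted p = 0.0252). Without recombined libraries 3 and 4 the calls of Pik3r1 and Foxo1 against wild type were lost, at 0.94 and 0.62.

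Among proteases and other proteins that act on the binding proteins, members moved in both directions. Of 11 listed genes 9 were tested. In recombined against wild type libraries 2 rose and 3 fell (4.17% and 2.38% of all loci), and in recombined against unrecombined libraries 1 rose and 3 fell (3.08% and 2.14% of all loci). Without recombined libraries 3 and 4 these counts were 0 and 1 against wild type, beside 128 and 120 loci in all. Against unrecombined they were 0 and 3, beside 100 and 182 loci in all.

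Pappa, the metalloproteinase that cuts IGFBP4 and frees IGF, was named after its values were seen. It had 93.2, 167, 402 and 277 CPM in recombined libraries, 22.0, 38.2, 14.2 and 118 CPM in unrecombined libraries and 67.7, 38.9, 39.7 and 41.4 CPM in wild type libraries. The recombined libraries were above every wild type library, and unrecombined library 4 lay above recombined library 1. Pappa rose by 2.32 ± 0.62 on the log2 scale against wild type libraries (SE, edgeR adjusted p = 0.0447), a call lost in 15 of 24 alternatives. Those included leaving out recombined library 2, 3 or 4, unrecombined library 2 or any wild type library, and without recombined libraries 3 and 4 together it was 1.47 (edgeR adjusted p = 0.447). The value against unrecombined libraries was 2.29 ± 0.62 (SE, edgeR adjusted p = 0.0551), and with the replicate block 2.48 (edgeR adjusted p = 0.0172).

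Stc2, a secreted inhibitor of PAPPA, had 122, 78.8, 23.9 and 96.3 CPM in recombined libraries, 267, 213, 141 and 230 CPM in unrecombined libraries and 246, 913, 315 and 843 CPM in wild type libraries. All recombined libraries lay below all others. It fell by 2.85 on the log2 scale against wild type libraries (SE 0.513, edgeR adjusted p = 0.00545), which was lost without recombined libraries 3 and 4 together (-2.53, edgeR adjusted p = 0.0602) and without the 3 libraries numbered 2 (-2.51, edgeR adjusted p = 0.0525). Stc2 did not pass against unrecombined libraries at -1.40 ± 0.49 (SE, edgeR adjusted p = 0.131) and passed with the replicate block at -1.58 (edgeR adjusted p = 0.00363).

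Adamts1, a secreted metalloproteinase of the matrix, had 1422, 887, 1828 and 1475 CPM in recombined libraries, 878, 444, 502 and 470 CPM in unrecombined libraries and 568, 215, 612 and 627 CPM in wild type libraries. It rose by 1.47 ± 0.33 against wild type libraries (SE, edgeR adjusted p = 0.0158) and by 1.29 ± 0.33 against unrecombined libraries (SE, edgeR adjusted p = 0.0337). Without recombined library 3 both calls were lost, at 1.32 and 1.15. The call against unrecombined libraries was also lost without recombined library 1 or 4 or unrecombined library 2, 3 or 4. Recombined libraries 3 and 4 left out together gave 1.18 and 1.01, neither past the threshold.

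The other 3 proteases named were low in recombined libraries. Adam12, a membrane metalloproteinase that can cut IGFBP3 and IGFBP5, averaged 1.06 ± 0.640 CPM in recombined, 16.3 ± 7.42 CPM in unrecombined and 8.03 ± 1.24 CPM in wild type libraries (SD, n = 4 each). It fell by 2.90 against wild type libraries (SE 0.521, edgeR adjusted p = 0.00469) and by 3.92 against unrecombined libraries (SE 0.541, edgeR adjusted p = 0.000608). Htra3, a secreted serine protease, had 0, 6, 4 and 1 counts in the recombined libraries and averaged 0.119 ± 0.115 CPM there, against 5.13 ± 1.84 CPM in unrecombined and 1.98 ± 0.998 CPM in wild type libraries (SD, n = 4 each). Htra3 fell by 4.07 against wild type libraries (SE 0.825, edgeR adjusted p = 0.00978) and by 5.44 against unrecombined libraries (SE 0.861, edgeR adjusted p = 0.00176), and without recombined libraries 3 and 4 together the call against wild type was lost (-4.18, edgeR adjusted p = 0.0657). Its relative Htra1, whose protein cuts IGFBP5, averaged 7.20 ± 5.84, 37.9 ± 9.95 and 13.9 ± 3.97 CPM in the recombined, unrecombined and wild type libraries and fell by 2.39 against unrecombined libraries (SE 0.491, edgeR adjusted p = 0.0102), a call lost without the 3 libraries numbered 2 (-2.50, edgeR adjusted p = 0.0638). Adam12, Htra1 and Htra3 had their lowest mean in recombined and their highest in unrecombined libraries. That is the order of the fibroblast markers and of the median endothelial and adipocyte sums. The part of these cell types in these falls was not tested.

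**Figure D4:**
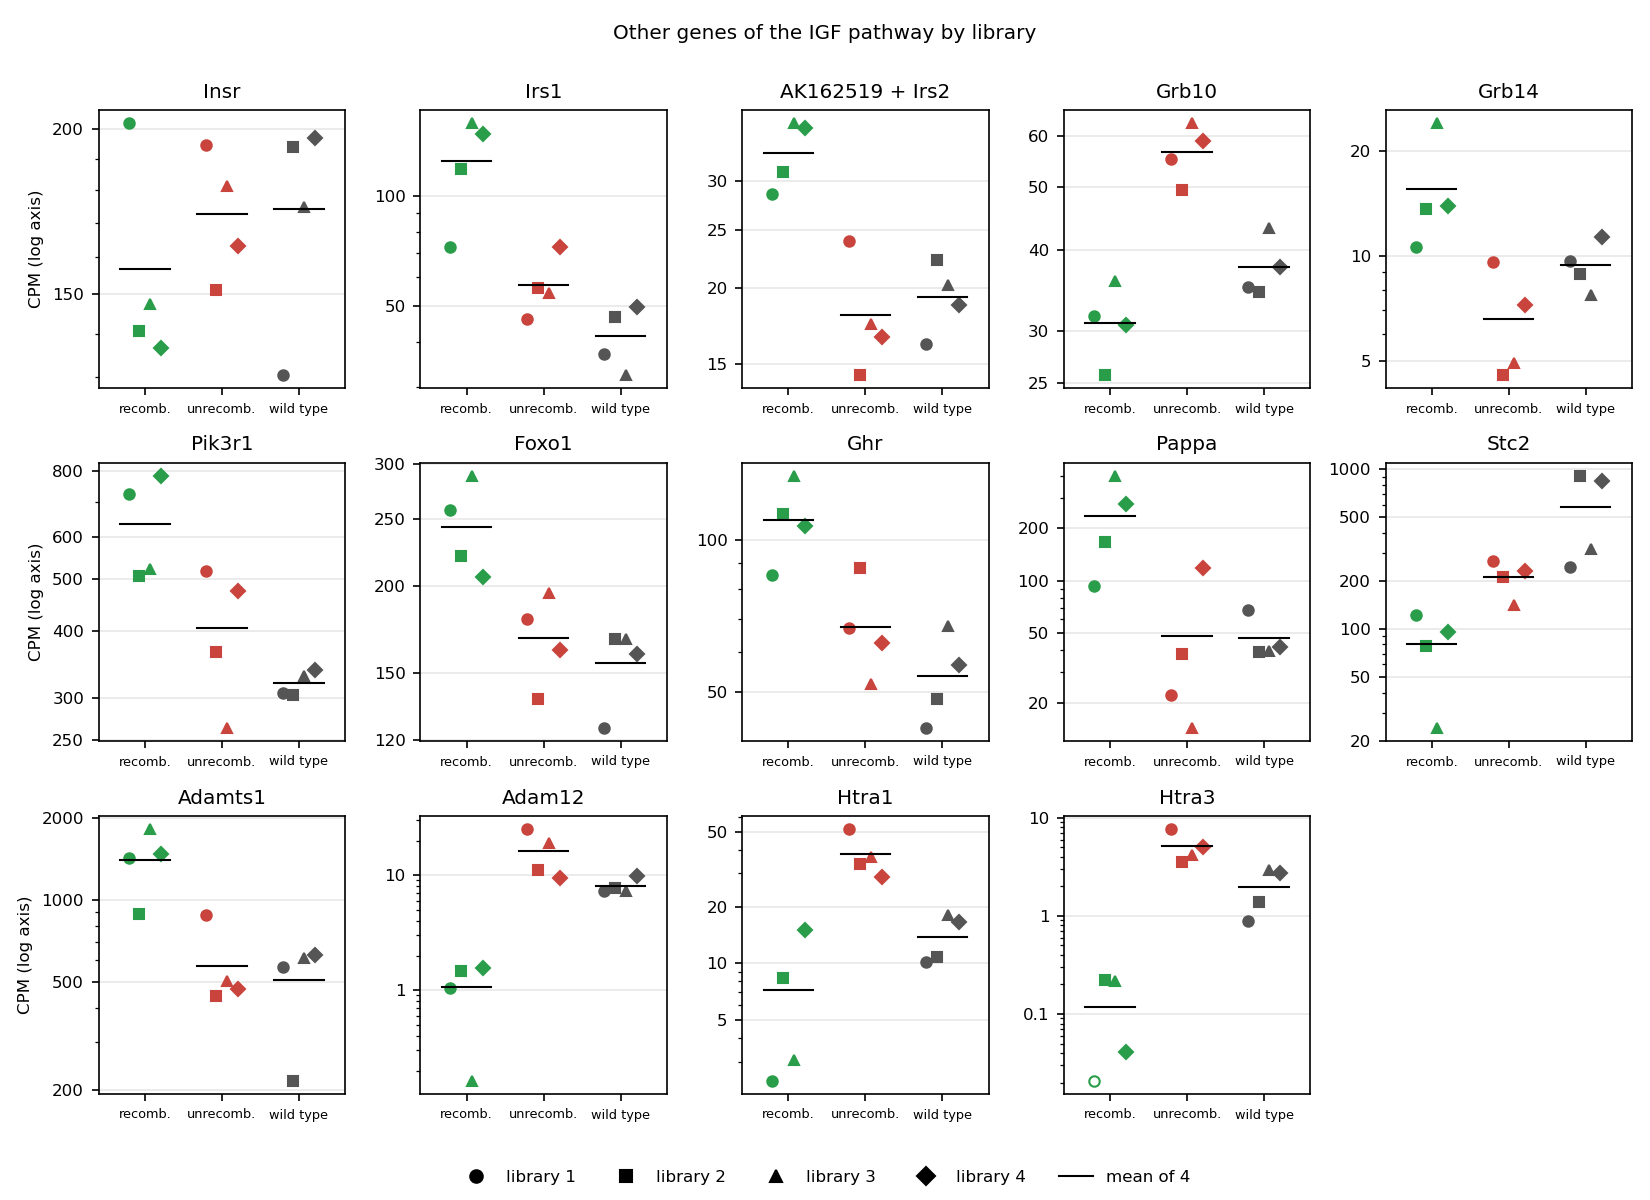
CPM on log axes for the 14 other genes of the IGF pathway that are named, with the recombined libraries on the left, the unrecombined in the middle and the wild type on the right of each panel. The line is the mean of 4 libraries, and the open circle of Htra3 marks recombined library 1, which had 0 counts and is drawn at an arbitrary low position; Irs1 lay at 72.7 CPM or more in recombined libraries and at 72.5 CPM or less in the others.

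Of 12 further genes around the IGF system 8 were tested, and 1 rose in recombined against wild type libraries, where 4.17% of all loci rose. None passed in recombined against unrecombined libraries, where 5.22% of all loci did. Ghr, the growth hormone receptor, whose signal raises Igf1 in liver and mammary stroma, had 85.2, 113, 134 and 107 CPM in recombined libraries, 66.9, 88.1, 51.9 and 62.5 CPM in unrecombined libraries and 42.4, 48.5, 67.5 and 56.7 CPM in wild type libraries. Ghr rose by 1.03 ± 0.20 on the log2 scale against wild type libraries (SE, edgeR adjusted p = 0.00863), a call lost without recombined libraries 3 and 4 together (0.88, edgeR adjusted p = 0.0916). Against unrecombined libraries it was 0.71 ± 0.20 and did not pass (SE, edgeR adjusted p = 0.0624).

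Within each series of library numbers, the 6 genes called against wild type kept the sign of their log2 difference. In the series 231 the differences of recombined to wild type libraries (2 against 3 libraries) were -1.38 for Igfbp4, -0.39 for Igf2r, 1.22 for Igfbp3 and 0.85 for Igfbp5. In the series 246, which has 1 wild type library, they were -1.74 for Igfbp4, -0.91 for Igf2r, 2.51 for Igfbp3 and 1.09 for Igfbp5. Between recombined and unrecombined libraries (2 against 2 in each series) the differences in the series 231 and 246 were -4.97 and -7.49 for Igf1, 0.93 and 0.70 for Igf1r, 1.35 and 2.85 for Igfbp3 and -2.85 and -2.29 for Igfbp4.

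The counts of called genes depended on a few libraries. Each run with libraries left out repeated the low-count filter, so its locus counts are not out of the 14039 loci of the main fit. They are given without a share of all loci. Without recombined libraries 3 and 4 together, 3 of the 10 genes passed against wild type, all lower (Igf1, Igfbp4 and Igfbp6), and 248 loci in all. Without the 3 libraries numbered 2, an alternative chosen after seeing the data, 3 passed (Igf1r higher, Igf1 and Igfbp4 lower), and 470 loci in all. Without recombined library 3 alone 3 passed, and 642 loci in all. Without wild type library 4 alone 3 passed, and 502 loci in all. Against unrecombined libraries 4 of the 10 passed in both of the joint omissions. Beside them, 282 loci in all passed without recombined libraries 3 and 4, and 515 without the libraries numbered 2. With the replicate block 6 of the 10 and 984 loci in all passed, and Igfbp5 rose and Igfbp6 fell as well.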

How the data were processed

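RNA of 12 libraries of sorted mammary epithelial cells was analysed, 4 in each of 3 groups, grouped by the titles of the samples. Reads were processed with STAR and HTSeq 0.3.1 on mm9, per the submitters' processing notes. The options, strand setting and annotation are not given in the sources used here. The table deposited by the authors holds raw counts per entry, per the file headers and its whole-number values. Of its 36635 entries, the 20114 that name 1 locus were used. Entries that list several loci took 0.0617% to 0.101% of each library's total and were not used, since their meaning is not stated.

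TMM scaling (trimmed mean of M values) and the default low-count filter came from edgeR 4.0.16 in R 4.3.3. The 14039 loci left were tested with the quasi-likelihood F test, with robust dispersion and all 12 libraries in 1 fit. The p-values are two-sided and adjusted by the Benjamini-Hochberg method over all loci, with a threshold of 0.05. The SE is the size of the log2 fold change divided by the square root of F. CPM are TMM-scaled. For recombined against wild type libraries, the SE had a median of 0.37 over loci. The fit was also run on simulated counts, with the same dispersion for every locus and no pairing of libraries. Those settings differ from these data, so that run is not used as support for the results here. Total counts of 19581993 to 34779433 limit what can be seen of genes near 1 CPM, and the counting error of single values is larger there.

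The 10 genes and the gene lists were chosen with earlier results of these data known. Beside the 10, the text names Insr, Irs1, Irs2 and Ghr, and up to 8 genes of the IGF lists past the threshold in each comparison by smallest p. For each called gene it also names the 3 loci with the highest Pearson r. These were taken from tested loci with a descriptive symbol of their own and a mean log2 CPM of at least 2. Of 148 list entries 144 were found.

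To see whether replicate numbers pair libraries, deviations from the group means were correlated. Recombined and unrecombined libraries of the same number correlated with r of 0.239 to 0.399 and those of different numbers with -0.24 to -0.0345, so they were treated as paired. Wild type libraries were not, since r was as low as -0.0314 with recombined libraries of the same number. The replicate block refers to the 8 paired libraries unless stated otherwise. Series 231 and 246 are the leading digits of the library numbers in the labels.

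Alternatives were the size factors and the Wald test of DESeq2 1.42.0, upper quartile scaling, limma-voom (limma 3.58.1), alone or weighting libraries, omitting the low-count filter or making it stricter, the groups compared alone, the replicate block, a covariate for the library number series, each library left out in turn, and recombined libraries 3 and 4 left out together. Promoters are RefSeq sequences of GRCm38.p6; mm9 coordinates are those of the deposited table, and the builds were not converted.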

Additional observations from a re-analysis of the deposited data

Results flagged for a closer look

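In 24 genes, the 10 of the IGF system and 14 others of its pathway, each group of 4 libraries was checked for a library far from the other 3, 72 checks in all, of which chance alone marks about 1 in 20. Such a library was found 8 times. Igf2 with Igf2as had 15.6 CPM in recombined library 3 (the other 3 had 1.28 to 2.42 CPM), 6.37 CPM in unrecombined library 2 (others 3.01 to 3.16 CPM) and 0.271 CPM in wild type library 2 (others 6.72 to 7.96 CPM). Igfbp7 with Polr2b had 207 CPM in recombined library 3 (others 123 to 136 CPM). Insr had 202 CPM in recombined library 1 (others 137 to 148 CPM). Adamts1 had 878 CPM in unrecombined library 1 (others 444 to 502 CPM) and 215 CPM in wild type library 2 (others 568 to 627 CPM). Pappa had 67.7 CPM in wild type library 1 (others 38.9 to 41.4 CPM).

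The effects of the recombined and of the unrecombined state, both against wild type, differed for 12 of the 24 genes, beside 5.22% of all loci. Apart from Insr, Irs1, Irs2 and Ghr, the pathway genes were named because they passed this or another comparison. Their number among those that differed is therefore not a separate result. The difference is the log2 fold change of recombined against unrecombined libraries, and its test is the edgeR test of that comparison. It was -5.41 for Igf1 (-3.55 in recombined and 1.86 in unrecombined against wild type libraries), -2.59 for Igfbp4 (-1.48 and 1.11), 0.81 for Igf1r (0.75 and -0.06) and 2.20 for Igfbp3 (1.88 and -0.32). For the docking proteins and adaptors it was 1.12 for Irs1, 0.89 for Irs2, -0.87 for Grb10 and 1.24 for Grb14. For the proteases it was -5.44 for Htra3, -3.92 for Adam12, -2.39 for Htra1 and 1.29 for Adamts1. These 12 come from the fit without the replicate block. With the block over the 8 recombined and unrecombined libraries Grb14 did not pass, and Igfbp5, Igfbp6, Pik3r1, Foxo1, Stc2 and Pappa did.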

How the results depend on the processing

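The calls of Igf1 and Igfbp4 in both comparisons of recombined libraries, of Igf1r against unrecombined, of Irs1 against wild type, and of Grb10, Htra3 and Adam12 against unrecombined held in all alternatives. In recombined against wild type libraries, the 920 loci called became 1617 with DESeq2, 594 with only the groups compared, 248 without recombined libraries 3 and 4, 470 without the 3 libraries numbered 2, and 502 to 1217 with single libraries left out. The 6 genes called of 10 became 3 in both joint omissions and 3 to 6 with single libraries left out. In unrecombined against wild type libraries, the 0 loci called became 78 with DESeq2, 18 with limma-voom, 61 with library weights, 8 with only the groups compared and 1 with the replicate block over all libraries, and the 0 genes of 10 became 1, 1 and 2 in the first 3 of these. In recombined against unrecombined libraries, the 733 loci became 1349 with DESeq2, 282 without recombined libraries 3 and 4, and 449 to 1044 with single libraries left out, and 4 genes became 4 to 5. The replicate block changed no call of the 10 genes beyond Igfbp5 and Igfbp6, and of the pathway genes none beyond those given, except that Irs2 (0.78) and Pappa (2.17) were lost against wild type with the block over all libraries. The cause of these changes was not tested.

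Signs turned 37 times, all in log2 fold changes that did not pass. For Igfbp2 in recombined against wild type libraries it was -0.73 with limma-voom, -1.01 with library weights, -0.14 with the replicate block over all libraries, -0.11 with the series covariate, -0.55 without recombined libraries 3 and 4, and -0.33 to 0.83 with single libraries left out. In unrecombined against wild type it was -0.14, -0.41, -0.28 and -0.49 in the first 4 of these and -0.29 to 0.32 with single libraries left out. In recombined against unrecombined it was -0.58 and -0.60 with limma-voom and weights, -0.18 with the block of 8 libraries, -0.60 without recombined libraries 3 and 4, and -0.39 to 0.78. For Igf2 it was 0.18 in unrecombined against wild type with limma-voom. In recombined against unrecombined it was -0.41 and -0.53 with limma-voom and weights, -0.31 and -0.36 with the block over all and over 8 libraries, -0.87 without recombined libraries 3 and 4, and -1.07 to 0.75, and in recombined against wild type -1.56 to 0.28 with single libraries left out. In unrecombined against wild type libraries with single libraries left out, Igf1r was -0.12 to 0.037, Igfbp3 -0.57 to 0.13 and Igfbp5 -0.028 to 0.43, and Igf1r was 0.0020 without the libraries numbered 2. At the depth of these libraries, genes under about 1 CPM rested on few counts, and a missing call for Igf2, Igfbp2 or Igfbp6 does not show equal levels.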
